A study of Arabidopsis thaliana with 16 samples.

Results

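The methyl-CpG-binding domain (MBD) genes of Arabidopsis thaliana described here are MBD1 (AT4G22745), MBD2 (AT5G35330), MBD4 (AT3G63030), MBD5 (AT3G46580), MBD6 (AT5G59380), MBD7 (AT5G59800), MBD8 (AT1G22310), MBD9 (AT3G01460), MBD10 (AT1G15340) and MBD11 (AT3G15790). They were chosen by gene identifier and are 10 of the 32548 genes in the expression table. RNA was sequenced from whole seedlings of 7 mutants and of the wild type Col-0, all 14 days old and raised on MS plates in long days (23 °C for 16 lit hours, 22 °C for 8 dark hours). The mutants, each labelled (-/-), were mbd124 (mbd1;mbd2;mbd4), hda6, sant1234 (sant1;2;3;4), esant12 (esant1;2), arid14 (arid1;arid4), hda19 and rxt3. Each genotype had 2 libraries, 16 in all. The mutant alleles, the position of each lesion and the number of plants per library are not given in the sources used here. The p-values therefore rest on the spread between the 2 libraries of a genotype, pooled over all 8 genotypes, and that spread may be technical.

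MBD proteins carry a domain first known from animal proteins that bind cytosine methylated at CG sites. In Arabidopsis only some members bind methylated CG strongly, among them MBD5, MBD6 and MBD7, while others have lost that binding and work inside chromatin complexes. HDA6 and HDA19 are histone deacetylases of the RPD3 type, which remove acetyl groups from histone tails and are best known as repressors of transcription. MBD1, MBD2 and MBD4 have been described as partners of HDA6 and of SANT-domain proteins, and the series compares plants lacking these and other complex components.

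All 10 genes are nuclear and protein-coding, and on TAIR10.1 they lie on chromosomes 1, 3, 4 and 5. The shortest in exon sequence is MBD4 (chr3:23295285-23296626, plus strand, 871 exon bases in 2 exon blocks, 186 residues). The longest is MBD9 (chr3:173190-182454, plus strand, 7073 exon bases in 10 exon blocks, 2176 residues). MBD1 (chr4:11947210-11948804, minus strand), MBD2 (chr5:13523403-13525834, minus strand) and MBD4 are annotated with a CW-type zinc finger beside the MBD, MBD8 (chr1:7881503-7883824, minus strand) with an AT hook, and MBD9 with a PHD finger. MBD6 (chr5:23952132-23953707, plus strand) is annotated as the closest match of MBD5 (chr3:17148232-17149597, plus strand), and MBD10 (chr1:5275616-5277869, minus strand) as that of MBD11 (chr3:5342712-5344715, plus strand). MBD7 (chr5:24094359-24096532, minus strand) has 6 exon blocks and 306 residues. No stretch of 50 exon bases of any of the 10 genes occurred elsewhere in the nuclear genome, so reads of 50 bases tell them apart. The exons of MBD2, MBD4 and MBD9 overlap a gene on the opposite strand by 104, 55 and 59 bases (AT5G35320, AT3G63040 and AT3G01470), and whether counting used strand is not stated.

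The 250 bases before the annotated start of 3 genes are shown because these genes passed the test in most mutants: MBD5 and MBD11 fell and MBD7 rose. The sequences are from RefSeq on TAIR10.1, written 5′ to 3′ on the gene's own strand, with site II elements in capitals.
MBD5, chr3:17147982-17148231, plus strand: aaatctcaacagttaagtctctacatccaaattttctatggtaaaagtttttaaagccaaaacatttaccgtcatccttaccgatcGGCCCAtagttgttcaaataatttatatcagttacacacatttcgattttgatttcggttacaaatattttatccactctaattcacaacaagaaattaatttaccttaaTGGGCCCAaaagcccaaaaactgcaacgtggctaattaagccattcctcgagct
MBD11, chr3:5342462-5342711, plus strand: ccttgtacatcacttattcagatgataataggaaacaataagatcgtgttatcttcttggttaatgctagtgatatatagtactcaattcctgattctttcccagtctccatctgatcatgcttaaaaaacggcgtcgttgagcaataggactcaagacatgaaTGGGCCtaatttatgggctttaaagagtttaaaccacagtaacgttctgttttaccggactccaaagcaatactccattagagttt
MBD7, chr5:24096533-24096782, minus strand: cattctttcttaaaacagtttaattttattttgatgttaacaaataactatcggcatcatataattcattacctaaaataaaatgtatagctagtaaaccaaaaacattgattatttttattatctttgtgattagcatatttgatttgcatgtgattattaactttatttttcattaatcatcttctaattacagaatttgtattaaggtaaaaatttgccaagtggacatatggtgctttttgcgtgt

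Both strands were searched for 6 motifs. Site II (TGGGCC), common in promoters of genes used in growing cells, was found in MBD5, MBD11 and MBD4 and in 13.7% of 27443 protein-coding promoters of the same length. In MBD5 a pair of its matches overlap within TGGGCCCA. The G-box core (CACGTG, 6.49% of promoters) was found in MBD8 and the I-box (GATAAG, 12.3%) in MBD4. The telo box (AAACCCTA, 4.49%), the W-box core (TTGACC, 12.2%) and the E2F site (TTCCCGCC, 0.517%) were found in none of the 10. The MBD5, MBD11 and MBD7 windows hold 7, 6 and 2 CG sites, against a median of 5 over all promoters. These matches describe the letters of the windows only.

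Values below are the deposited normalised read counts, called counts from here on. The libraries held 19259579 to 19522197 reads in genes, and replicates of a genotype correlated at Pearson's r of 0.991 to 0.993 across genes. By these 2 measures no library stood apart. A gene was called higher or lower in a mutant at a Benjamini-Hochberg adjusted p under 0.05 over all 20846 genes tested, from limma on log2(count + 1), and all 10 MBD genes were among those tested. Each log2 fold change is mutant minus wild type on that scale, with its standard error (SE) from the fit of all 16 libraries. All mutants were compared with the same 2 wild-type libraries, so a high or low wild-type value moves every comparison at once. Of 6 photosynthesis genes used as green-tissue markers, all 6 were detected and their summed counts were 667762 to 804692 in mutant libraries, against 592355 to 611167 in wild-type libraries. CAB1, LHCB3 and LHCA1 were called higher in all 7 mutants, PSBO1 in 3, PSAD1 in 2 and RBCS1A in 0. Root markers (8 of 8 detected) summed to 1404 to 1839 in mutants and 1749 to 1828 in the wild type. Most of that sum is SCR (1200 and 1217 counts in the wild type), which was called lower in 5 mutants. SHR was called lower in 2, while PLT2 and EXPA7 were called higher in 2 each and WOX5 in 1. Dividing-cell markers (5 of 5) summed to 684 to 939 in mutants and 729 to 852 in the wild type, and flower markers (2 of 3) to 3.11 to 38.9 and 7.99 to 12.9. The part of tissue make-up in the results below was not tested, and in whole seedlings fewer cells of a type and less RNA per cell cannot be told apart.

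In the wild type, MBD10 was the most abundant member per length of exon and MBD9 the least. MBD10, a protein linked to silencing of ribosomal RNA genes, reached 1456 and 1485 counts per kb. MBD11 followed at 478 and 414 counts per kb, MBD2 at 269 and 295 and MBD1 at 230.1 and 210.1. The libraries of these 4 genes did not overlap one another. MBD5 (138 and 160 counts per kb), MBD6 (143 and 142) and MBD4 (161 and 122) overlapped and could not be ordered. MBD8 (118 and 117), MBD7 (115 and 111) and MBD9 (107 and 101) were lowest and did not overlap one another.

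**Figure D1:**
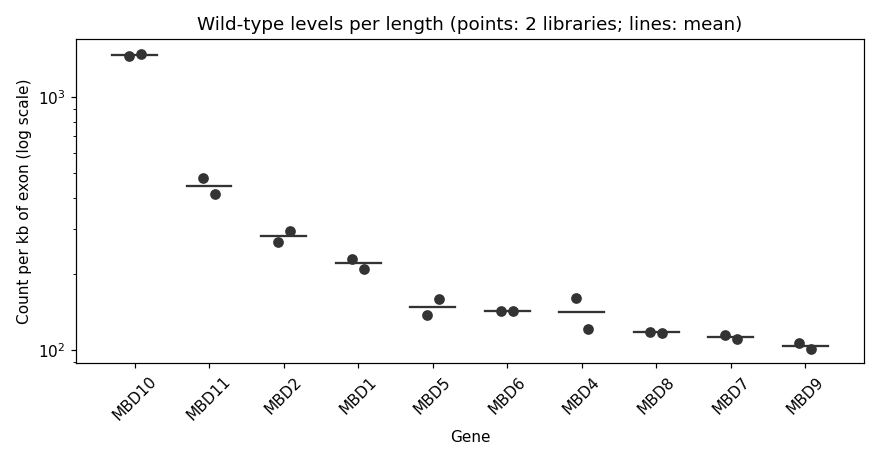
Normalised read count per kb of exon (log axis) of the 10 MBD genes in wild-type seedlings; points are the 2 libraries and lines their mean. MBD10 stands at a mean of 1470 counts per kb and MBD9 at 104.

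The mbd124 libraries held almost no MBD1 and little MBD4 RNA, while MBD2 RNA was reduced but still plentiful. MBD1 had 1.03 and 1.02 counts in mbd124, against 229 and 209 in the wild type, which is 2 reads against 439 and a ratio of 0.00459 (95% interval 0.000554 to 0.0167, for counting error only). MBD4 had 5.19 and 10.1 counts in mbd124, against 140.2 and 106 in the wild type (15 reads against 247, ratio 0.0612, interval 0.0337 to 0.103). MBD2 had 185 and 177 counts in mbd124, against 458 and 504 in the wild type (353 reads against 965, ratio 0.368, interval 0.325 to 0.417). All 3 were called lower (limma adjusted p 1.91e-13 for MBD1, 9.71e-07 for MBD4 and 9.46e-08 for MBD2), which fits the label of these libraries. Reads were counted over whole genes, so whether the remaining MBD2 reads come from an intact transcript is not known.

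**Figure D2:**
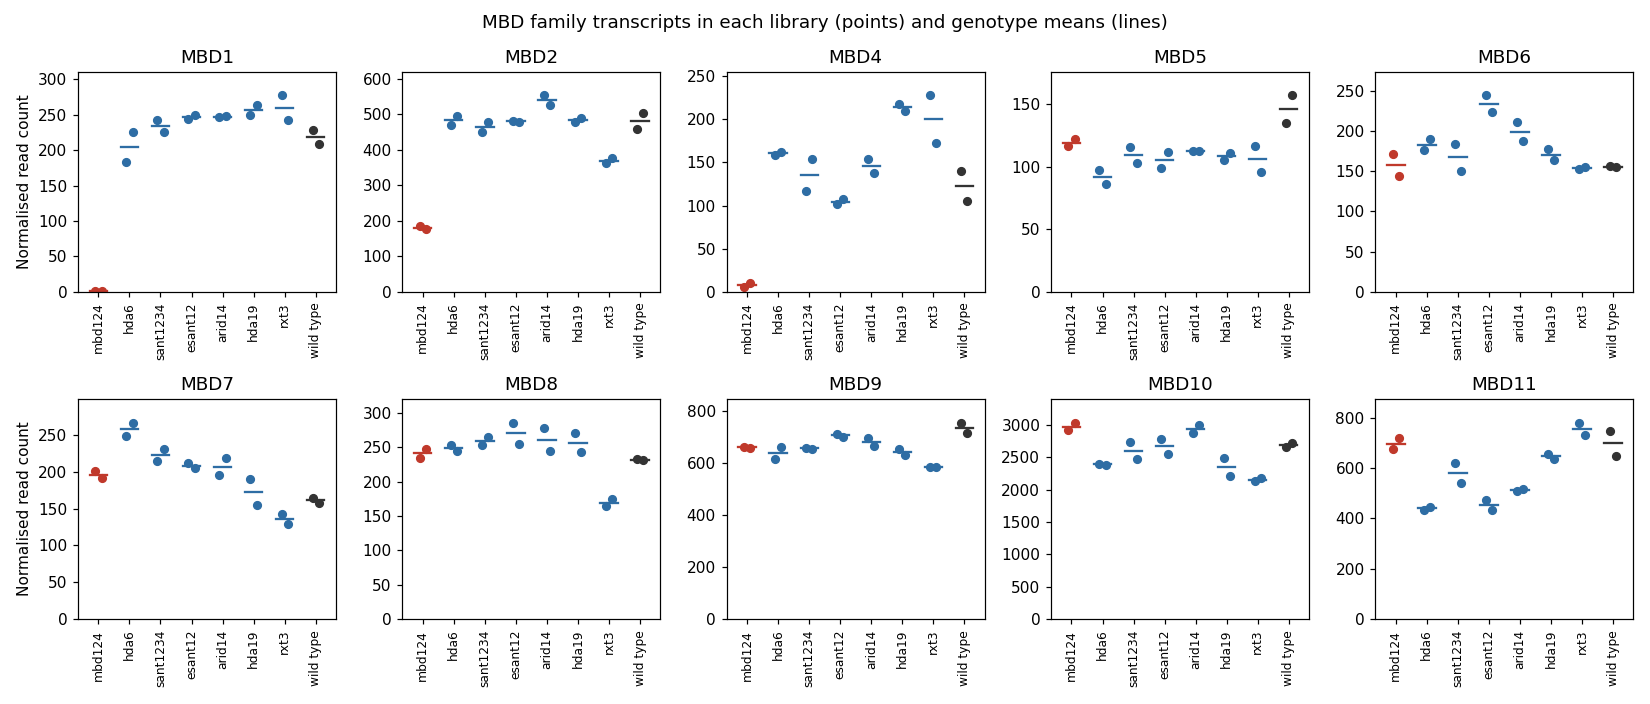
Normalised read counts of each MBD gene (y axes start at 0) by genotype, with the wild type on the right; points are libraries and lines the mean of 2. MBD1 and MBD4 lie near 0 in mbd124, and both wild-type libraries of MBD5 and of MBD9 lie above every mutant library.

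None of the 7 members left intact in mbd124 was called there, higher or lower. The 3 mutated genes were the only members called, against a background of 10% of all genes called in either direction (4.73% higher and 5.27% lower). That background is 2084 genes, and it depended on single libraries: 783 genes were called without mbd124 replicate 2, 1055 without mbd124 replicate 1, 886 without wild-type replicate 1 and 1162 without wild-type replicate 2. In the fit of these 2 genotypes alone it was 116. The median size of the log2 fold change over the 7 intact members was 0.14, and over all genes also 0.14. The smallest limma p-values among the 7 were those of MBD9 (log2 fold change -0.16, unadjusted p 0.0157, adjusted p 0.105), MBD7 (0.28, unadjusted p 0.0246, adjusted p 0.137) and MBD10 (0.14, unadjusted p 0.0397, adjusted p 0.183). The share of all genes with unadjusted p-values this small was not counted, so these are not read as a result about the members. The edgeR and DESeq2 tests on the recovered reads also called none of the 7.

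The other mutants changed some members each. In rxt3, 1 of 10 members was called higher and 5 lower, where 47.2% of all genes were called (22.3% higher and 24.9% lower). In arid14, 2 members were higher and 1 lower, against a background of 32.3% (15.1% higher and 17.2% lower). In hda19, 1 was higher and 3 lower, against 30.2% (14.0% and 16.2%). In esant12, 2 were higher and 2 lower, against 25.9% (11.5% and 14.3%). In hda6, 1 was higher and 3 lower, against 23.8% (11.2% and 12.5%), and in sant1234, 1 was higher and 2 lower, against 19.8% (8.53% and 11.3%). With so few members, these shares are not read as a result about the family as a whole. Leaving aside the mutated genes of mbd124, 24 of 67 pairs of member and mutant were called, 8 higher and 16 lower, with log2 fold changes of 0.19 to 0.81 in size. The number of members called fell to 1 in arid14 without wild-type replicate 1, wild-type replicate 2 or arid14 replicate 2, and to 2 in esant12 without wild-type replicate 2 or esant12 replicate 1. In sant1234 it fell to 1 without either wild-type library and to 0 without sant1234 replicate 2. In hda19 it fell to 2 without wild-type replicate 1 or hda19 replicate 1, to 1 without wild-type replicate 2 and to 0 without hda19 replicate 2. The numbers called in rxt3 and hda6 also fell when 1 library was left out. Of the 24 calls, 10 held in all 12 alternative analyses. Fitting only the 2 genotypes compared ended 12 of the 24 (adjusted p 0.0641 to 0.165), and DESeq2 also ended 12 (0.0543 to 0.255). In a test over all genotypes (limma's F test) 7 of the 7 members not mutated in mbd124 differed, as did 71.8% of all genes. The 3 mutated genes passed too, but their own loss in mbd124 enters that test.

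**Figure D3:**
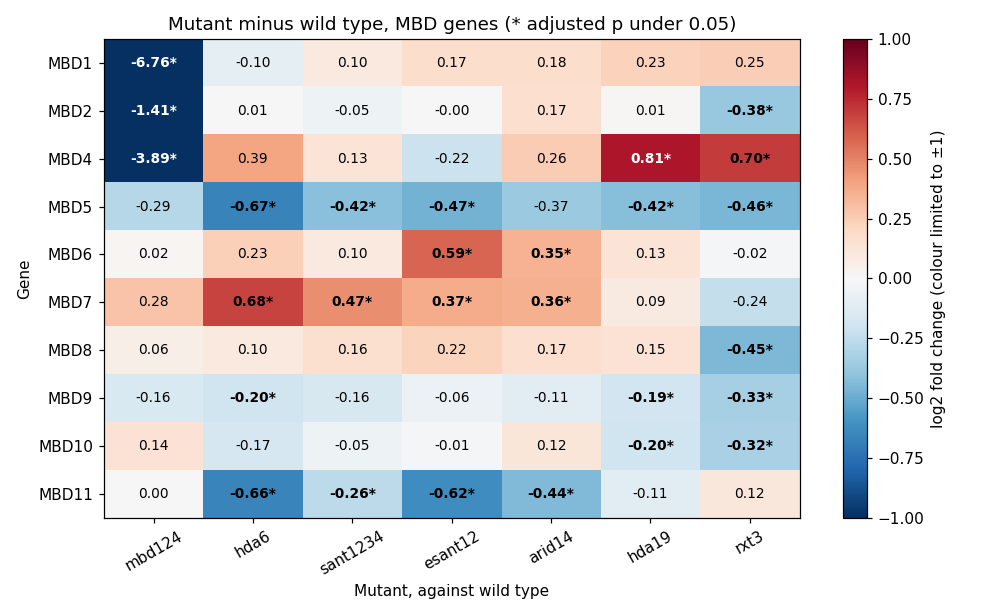
Log2 fold change (number and colour, colour limited to ±1) of each MBD gene in each mutant against the wild type, from limma on log2(count + 1); an asterisk marks adjusted p under 0.05. The value of MBD1 in mbd124 rests on 2 reads and depends on the added count of 1; outside the mutated genes of mbd124, the strongest is MBD4 in hda19 at 0.81.

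The members that bind methylated CG moved in different directions. MBD5, which with MBD6 recruits the J-domain protein SLN to silence some methylated genes, was lower than the wild type in every mutant library. It had 97.4 and 85.8 counts in hda6, 98.5 and 112 in esant12, 116 and 103 in sant1234, 106 and 111 in hda19, and 117 and 95.7 in rxt3, against 135 and 157 in the wild type. In arid14 it had 112 and 112 counts and in mbd124 117 and 122. The fall in hda6 was the deepest (log2 fold change -0.67, SE 0.14, adjusted p 0.00356) and held in all 12 alternatives. It was also called lower in esant12 (-0.47, adjusted p 0.0231), rxt3 (-0.46, adjusted p 0.0147), hda19 (-0.42, adjusted p 0.0334) and sant1234 (-0.42, adjusted p 0.0496). In arid14 (-0.37, adjusted p 0.0552) and mbd124 (-0.29, adjusted p 0.229) it was not called. These 4 shallower calls were lost when wild-type replicate 2, the highest library, was left out (adjusted p 0.165 in esant12, 0.124 in rxt3, 0.213 in hda19 and 0.269 in sant1234). They were also lost without esant12 replicate 1 (0.158), rxt3 replicate 2 (0.142), hda19 replicate 1 or 2 (0.127 and 0.0854), wild-type replicate 1 (0.0626, for sant1234), sant1234 replicate 1 or 2 (0.0831 and 0.254), with DESeq2, and in the fit of the 2 genotypes alone (0.0957 to 0.132). The sant1234 call held in only 2 of 12 alternatives, since a pseudocount of 0.1 (0.0522), no filter on low counts (0.0591), median-of-ratios factors (0.053) and a replicate block (0.0539) ended it too.

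MBD6 did not follow its relative MBD5. It had 244 and 224 counts in esant12, against 156 and 155 in the wild type, and no library of the other genotypes reached the esant12 values. It was called higher there (log2 fold change 0.59, SE 0.12, adjusted p 0.00319), in all 12 alternatives. In arid14 it had 211 and 187 counts and was also called higher (0.35, adjusted p 0.0412), but that call was lost without any 1 of the 4 libraries compared (adjusted p 0.118 and 0.129 without wild-type replicates 1 and 2, 0.226 and 0.0523 without arid14 replicates 1 and 2) and with DESeq2 (0.17). In the other 5 mutants its log2 fold change was -0.02 to 0.23, with no call.

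MBD7, which works with the IDM proteins to aid active removal of DNA methylation, was highest in hda6. It had 249 and 267 counts in hda6, 215 and 231 in sant1234, 211 and 205 in esant12, and 196 and 218 in arid14, against 164 and 158 in the wild type. All 8 of these mutant libraries lay above both wild-type ones. The rise was 0.68 in hda6 (SE 0.11, adjusted p 7e-04, in all 12 alternatives), 0.47 in sant1234 (adjusted p 0.00952), 0.37 in esant12 (adjusted p 0.0258) and 0.36 in arid14 (adjusted p 0.0251). In mbd124 MBD7 had 201 and 191 counts and in hda19 190.4 and 155. In rxt3 it had 143 and 129 counts, the lowest of all (log2 fold change -0.24, adjusted p 0.0924), and none of these 3 was called. The sant1234 call was lost without wild-type replicate 2 (adjusted p 0.0607) or sant1234 replicate 2 (0.0818). The esant12 call was lost without any of the 4 libraries compared (0.0721 and 0.115 without wild-type replicates 1 and 2, 0.119 and 0.0782 without esant12 replicates 1 and 2), and the arid14 call without wild-type replicate 1 (0.0667), wild-type replicate 2 (0.111) or arid14 replicate 2 (0.164). DESeq2 called none of these 3 (adjusted p 0.0543 in sant1234, 0.148 in esant12 and 0.137 in arid14).

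MBD11, the closest relative of MBD10, was lower in hda6, esant12 and arid14. It had 434 and 447 counts in hda6, 472 and 432 in esant12, and 508 and 518 in arid14, against 749 and 648 in the wild type. No library of these mutants reached the wild-type range, and the mean in hda6 was 63.05% of the wild-type mean. The log2 fold changes were -0.66 in hda6 (SE 0.08, adjusted p 7.2e-05), -0.62 in esant12 (SE 0.08, adjusted p 0.000126) and -0.44 in arid14 (SE 0.08, adjusted p 0.00098), all called in 12 of 12 alternatives. In sant1234 it had 621 and 542 counts and was called lower (-0.26, adjusted p 0.0368), but not without wild-type replicate 1 (adjusted p 0.295) or sant1234 replicate 2 (0.297), nor without the filter on low counts (0.0522) or with DESeq2 (0.132). In hda19 (656 and 638), mbd124 (675 and 720.3) and rxt3 (781 and 730.4) its libraries overlapped the wild-type ones and it was not called.

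**Figure D4:**
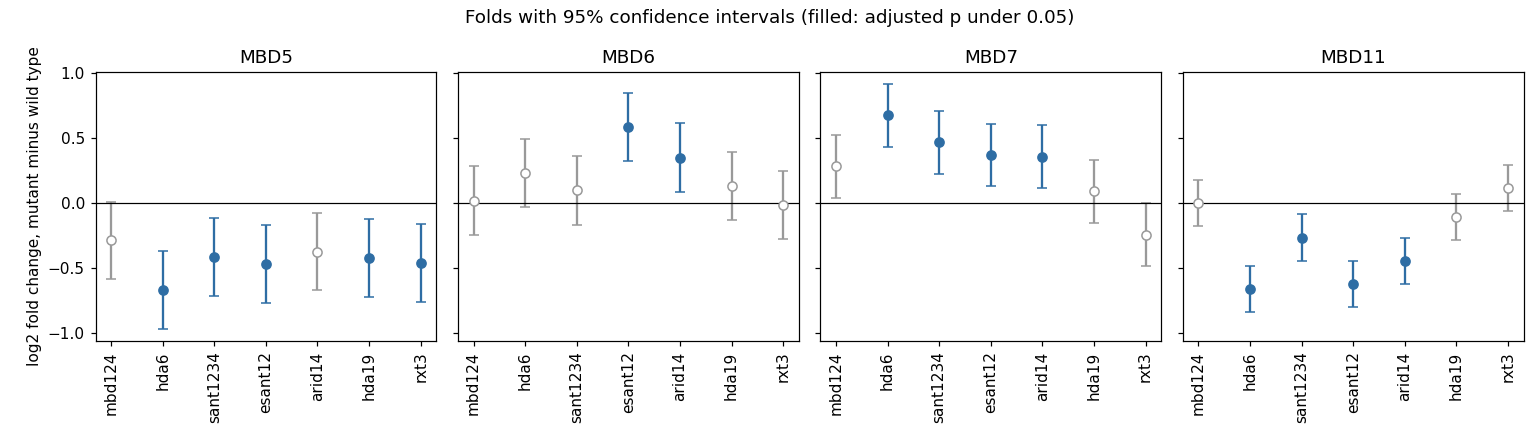
Log2 fold change against the wild type, with 95% confidence intervals from limma, of MBD5, MBD6, MBD7 and MBD11 in each mutant; filled points have an adjusted p under 0.05. MBD7 is above 0 and MBD11 below 0 in hda6, sant1234, esant12 and arid14, with values of 0.68 and -0.66 in hda6.

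MBD10 itself was lowest in rxt3. It had 2125 and 2180 counts in rxt3 and 2486 and 2216 in hda19, against 2663 and 2716 in the wild type. It was called lower in rxt3 (log2 fold change -0.32, SE 0.06, adjusted p 0.000909, in all 12 alternatives) and in hda19 (-0.20, adjusted p 0.0314). The hda19 call was lost without wild-type replicate 1 (adjusted p 0.0841), wild-type replicate 2 (0.13) or hda19 replicate 2 (0.286), and with DESeq2 (0.0675). In the other mutants the means were 2390.1 (hda6) to 2973 (mbd124), with log2 fold changes of -0.17 to 0.14 and no call.

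The 3 genes mutated in mbd124 were measured in the other mutants too. MBD4 was higher in hda19, with 218 and 210 counts, and in rxt3, with 228 and 173, against 140.2 and 106 in the wild type. Its log2 fold changes of 0.81 (SE 0.24, adjusted p 0.019) in hda19 and 0.70 (SE 0.24, adjusted p 0.0254) in rxt3 were called, with the widest error of any member. Both calls were lost without wild-type replicate 2 (adjusted p 0.15 in hda19 and 0.188 in rxt3); the first also without hda19 replicate 1 (0.0757) or 2 (0.0684), the second without rxt3 replicate 1 (0.189). MBD2 was lower in rxt3, with 363 and 376 counts against 458 and 504 in the wild type (-0.38, SE 0.07, adjusted p 0.000524, in all 12 alternatives). In the other mutants MBD2 had means of 464 (sant1234) to 540.4 (arid14), with no call. MBD1 was not called in any mutant but mbd124, and its means in the other mutants ran from 205 in hda6 to 260.02 in rxt3, against 219 in the wild type.

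MBD8 and MBD9 were lower in rxt3. MBD8, an AT-hook protein, had 164 and 175 counts in rxt3, against 233 and 231 in the wild type (log2 fold change -0.45, SE 0.10, adjusted p 0.0016). In the other 6 mutants its mean was 241 to 270.5, with log2 fold changes of 0.06 to 0.22 and no call. MBD9, a partner of the SWR1 complex that places the histone variant H2A.Z, had 584.4 and 584.4 counts in rxt3, against 757 and 717 in the wild type (-0.33, SE 0.06, adjusted p 0.000275). Both rxt3 calls held in all 12 alternatives. MBD9 was also called lower in hda6, with 618 and 663 counts (-0.20, adjusted p 0.019), and in hda19, with 656 and 631 counts (-0.19, adjusted p 0.0184). These were lost without wild-type replicate 1 (adjusted p 0.141 and 0.134), hda6 replicate 1 (0.0996) or hda19 replicate 2 (0.115), and with DESeq2. In esant12 (714 and 703), arid14 (697 and 666), mbd124 (662 and 660.4) and sant1234 (660.4 and 655) MBD9 was below the wild type without a call.

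Over the genotypes other than mbd124, MBD4 varied most, and MBD9 and MBD1 least. The highest genotype mean was 2.05 times the lowest for MBD4, 1.26 times for MBD9 and 1.27 times for MBD1. On the log2 scale these ranges are 1.03, 0.33 and 0.34, and the median range over all genes tested was 0.58. By mean, the lowest genotype was rxt3 for MBD2, MBD6, MBD7, MBD8, MBD9 and MBD10, hda6 for MBD1, MBD5 and MBD11, and esant12 for MBD4. How often each genotype was lowest over all genes was not counted, and 24.9% of all genes were called lower in rxt3. For several members the order of genotypes is within the spread of the libraries. The hda6 libraries of MBD1 overlapped those of the wild type, as did the esant12 libraries of MBD4 and the rxt3 libraries of MBD6. For MBD11 hda6 overlapped esant12, and for MBD5 it overlapped rxt3. For MBD6, the genotypes below esant12 overlapped from one to the next. For MBD7, both hda6 libraries stood above those of every other genotype, while sant1234 and arid14 overlapped.

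The triple mutant was also set against its proposed partners. Against sant1234, the 3 mutated genes were the members called (MBD4 not in the fit of the 2 genotypes alone, adjusted p 0.0525), where 2.13% of all genes were called (1.23% higher and 0.892% lower), and the log2 fold changes of the 7 others, mbd124 minus sant1234, ran from -0.19 (MBD7, 95% interval -0.43 to 0.06) to 0.26 (MBD11, 0.09 to 0.44). Against hda6, where 12.8% of all genes were called (6.70% higher and 6.07% lower), 3 of the 7 intact members differed. MBD11 was higher in mbd124 than in hda6 (675 and 720.3 counts, against 434 and 447; log2 fold change 0.66, SE 0.08, adjusted p 0.00012), in all 12 alternatives. MBD10 was also higher in mbd124 (2913 and 3033 counts, against 2397 and 2383 in hda6; 0.31, SE 0.06, adjusted p 0.00507), a call lost without hda6 replicate 2 (adjusted p 0.0561). MBD7 was lower in mbd124 (201 and 191 counts, against 249 and 267 in hda6; -0.39, SE 0.11, adjusted p 0.0345), a call lost without any of the 4 libraries (adjusted p 0.0882 and 0.186 without hda6 replicates 1 and 2, 0.0965 and 0.161 without mbd124 replicates 1 and 2) and with DESeq2 (0.151).

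Genes that work beside the MBD proteins were read from 4 lists. Their counts stand against the shares of all genes called given above for each mutant, from 10% in mbd124 to 47.2% in rxt3; several are near or below those shares, and none is read as a result about a list. Of 9 genes for active demethylation and the partners of MBD7, 1 was called in mbd124 (higher), 1 in hda6 (lower), 1 in sant1234 (higher), 2 in esant12 (1 higher, 1 lower), 2 in arid14 (both higher), 2 in hda19 (both higher) and 4 in rxt3 (all higher). Of all genes, 4.73% were called higher in mbd124, 8.53% in sant1234, 11.5% in esant12, 15.1% in arid14, 14.0% in hda19 and 22.3% in rxt3, and 12.5% were called lower in hda6. The gene called in all 7 was ROS1, the main DNA glycosylase that removes methylated cytosine in vegetative tissue. ROS1 had 667 and 562 counts in hda6, against 1072 and 1016 in the wild type. It had 1253 and 1327 counts in mbd124, 1740.2 and 1709 in sant1234, 1642 and 1692 in esant12, 1242 and 1197 in arid14, 1392 and 1419 in hda19, and 1426 and 1411 in rxt3. So ROS1 was lower in hda6 (log2 fold change -0.77, SE 0.07, adjusted p 3.01e-06) and higher in the 6 other mutants, by 0.72 in sant1234 (adjusted p 1.48e-05), 0.68 in esant12 (1.45e-05), 0.44 in rxt3 (0.000117), 0.43 in hda19 (0.000349), 0.30 in mbd124 (0.0113) and 0.22 in arid14 (0.0204). The mbd124 call was lost without wild-type replicate 2 (adjusted p 0.0869) or mbd124 replicate 2 (0.104) and in the fit of the 2 genotypes alone (0.0777), and the arid14 call without wild-type replicate 2 (0.129) or arid14 replicate 1 (0.107). In the direct comparisons ROS1 in mbd124 was above hda6 (1.07, adjusted p 1.66e-07) and below sant1234 (-0.42, adjusted p 0.00636, lost without sant1234 replicate 1 or 2, at 0.074 and 0.0542, without mbd124 replicate 1, at 0.0777, or with these 2 genotypes alone, at 0.0681). DME, the glycosylase best known from the central cell of the female gametophyte, was higher in arid14 (0.34, adjusted p 0.000302), rxt3 (0.33, 0.000232) and hda19 (0.28, 0.00169). ZDP, a phosphatase that acts after ROS1 cuts the DNA, was higher in rxt3 (341 and 305 counts, against 232 and 205 in the wild type; 0.56, adjusted p 0.000835).

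The list for writing DNA methylation held the DNA methyltransferase genes MET1, CMT2, CMT3, DRM1 and DRM2. It also held DDM1, KYP, SUVH5, SUVH6, VIM1, VIM2 and VIM3, which act beside them, so calls below are not calls of methyltransferases alone. Of these 12 genes, 11 were tested and DRM1 was too low to test. None was called in mbd124, 3 were lower in hda6, 1 was lower in sant1234, 3 were higher in esant12, 2 were higher and 2 lower in arid14, 3 were higher in hda19, and 2 were higher and 2 lower in rxt3. Among all genes, 12.5% were lower in hda6, 11.3% lower in sant1234, 11.5% higher in esant12, 15.1% higher and 17.2% lower in arid14, 14.0% higher in hda19, and 22.3% higher and 24.9% lower in rxt3. CMT3, the methyltransferase for CHG sites, had 366 and 335 counts in hda6, against 520.04 and 444 in the wild type (log2 fold change -0.45, adjusted p 0.000997). It was also lower in arid14 (-0.38, adjusted p 0.00232), sant1234 (-0.37, adjusted p 0.00493, lost without wild-type replicate 1 at 0.0677) and rxt3 (-0.23, adjusted p 0.0254, lost without wild-type replicate 1 at 0.288, rxt3 replicate 1 at 0.109 or rxt3 replicate 2 at 0.0592). CMT2, which methylates CHH sites in long transposons, was higher in esant12 (628 and 594 counts, against 457 and 427 in the wild type; 0.47, adjusted p 0.00104), rxt3 (0.40, adjusted p 0.00125) and arid14 (0.27, adjusted p 0.0221, lost without wild-type replicate 2 at 0.14 or arid14 replicate 2 at 0.129). MET1, which copies CG methylation at replication, was lower in rxt3 (-0.28, adjusted p 0.00663), hda6 (-0.27, adjusted p 0.0169) and arid14 (-0.20, adjusted p 0.0497). The rxt3 call of MET1 was lost without wild-type replicate 1 (adjusted p 0.0638) or rxt3 replicate 2 (0.0924). Its hda6 call was lost without wild-type replicate 1 (0.131), hda6 replicate 1 (0.0666) or hda6 replicate 2 (0.0951), and its arid14 call without any of the 4 libraries compared (0.262 and 0.0581 without wild-type replicates 1 and 2, 0.259 and 0.0562 without arid14 replicates 1 and 2). That arid14 call held in only 3 of 12 alternatives, being lost also with no filter (0.0625), a replicate block (0.051) and edgeR (0.0546). With only the 2 genotypes fitted, CMT3 lost its calls in arid14 (0.0567), sant1234 (0.0724) and rxt3 (0.125), CMT2 in arid14 (0.0602), and MET1 in rxt3 (0.0687) and arid14 (0.109). DESeq2 did not call CMT3 in rxt3 (0.16), CMT2 in arid14 (0.0958), or MET1 in hda6 (0.0927) and arid14 (0.172).

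**Figure D5:**
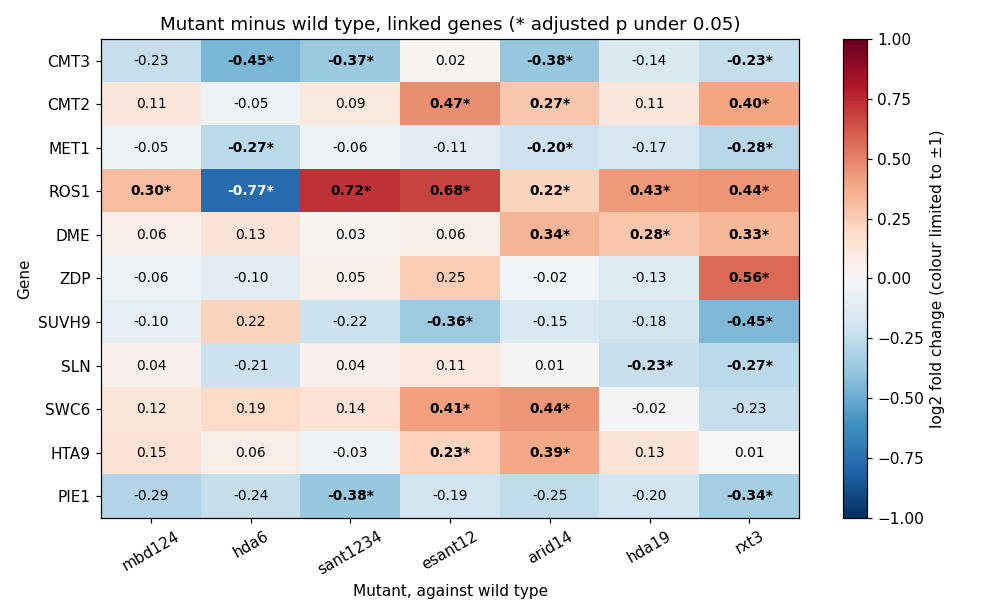
Log2 fold change (number and colour, limited to ±1) in each mutant against the wild type of the genes named from the lists of methylation, demethylation, reader and SWR1 genes; an asterisk marks adjusted p under 0.05. ROS1 is called in all 7 mutants, at -0.77 in hda6 and 0.22 to 0.72 in the others.

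Of 5 further readers and partners of methylated DNA, none was called in mbd124, hda6, sant1234 or arid14, 1 was lower in esant12, 1 in hda19 and 2 in rxt3, where 14.3%, 16.2% and 24.9% of all genes were lower. SUVH9, which helps bring RNA polymerase V to methylated DNA, had 570 and 637 counts in rxt3 and 645 and 633 in esant12, against 763 and 884 in the wild type (log2 fold changes -0.45, adjusted p 0.000323, and -0.36, adjusted p 0.00375). The esant12 call was lost without wild-type replicate 2 and with the 2 genotypes alone (adjusted p 0.0532 in both). SLN, the partner of MBD5 and MBD6, was lower in rxt3 (325 and 340 counts, against 384 and 418; -0.27, adjusted p 0.0102) and in hda19 (349 and 335 counts; -0.23, adjusted p 0.0361). Both SLN calls were lost without wild-type replicate 2 (0.0975 in rxt3 and 0.227 in hda19), and without rxt3 replicate 1 (0.0668), hda19 replicate 1 (0.065) or hda19 replicate 2 (0.169). They were lost too with the 2 genotypes alone (0.0603 in rxt3 and 0.124 in hda19) and with DESeq2 (0.116 and 0.236).

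Of 13 genes of the SWR1 complex, H2A.Z and the ISWI remodellers, among which MBD9 works, none was called in mbd124 or hda19, 2 were lower in hda6, 2 lower in sant1234, 4 higher in esant12, 2 higher in arid14 and 4 lower in rxt3. Of all genes, 12.5% were lower in hda6, 11.3% lower in sant1234, 11.5% higher in esant12, 15.1% higher in arid14 and 24.9% lower in rxt3. PIE1, the ATPase of SWR1, was lower in sant1234 (407 and 477 counts, against 526 and 626, log2 fold change -0.38, adjusted p 0.0129). It was also lower in rxt3 (461 and 445 counts, log2 fold change -0.34, adjusted p 0.0097). Over all genotypes PIE1 did not pass (limma F test, adjusted p 0.0568). Both PIE1 calls were lost without wild-type replicate 2 (0.142 and 0.133), without sant1234 replicate 1 (0.141) or rxt3 replicate 2 (0.0536), and with the 2 genotypes alone (0.112 and 0.059). HTA9, an H2A.Z gene, was higher in arid14 (2358 and 2499 counts, against 1845 and 1871; 0.39, adjusted p 0.000889) and in esant12 (2249 and 2116 counts; 0.23, adjusted p 0.0275). The esant12 call was lost without wild-type replicate 1 (0.113), wild-type replicate 2 (0.0833) or esant12 replicate 1 (0.175). SWC6, an SWR1 subunit, was higher in arid14 (156 and 180.2 counts, against 128 and 119; 0.44, adjusted p 0.011) and in esant12 (163 and 167 counts; 0.41, adjusted p 0.0195). It lost these calls without wild-type replicate 2 (0.0758 and 0.114), arid14 replicate 2 (0.106), esant12 replicate 1 (0.0719) or esant12 replicate 2 (0.0916), with the 2 genotypes alone (0.0816 in arid14 and 0.0741 in esant12) and with DESeq2 (0.0995 and 0.16). In mbd124, where 10% of all genes were called, 1 gene of the 38 tested in these 4 lists was called, ROS1, and that call was lost in the 3 alternatives given above.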

How the data were processed

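The table holds 1 column of values per library for 32548 genes. Per the submitters' processing notes, the authors used HISAT2 2.1.0, featureCounts and edgeR with TAIR10; their settings and the strand option are not given in the sources used here. The deposited signal is a normalised read count, adjusted to a common library size by edgeR. Whole read counts were recovered from it: 100% of values matched within a relative tolerance of 1e-06, running edgeR on these reads gave the deposited signal back, and 5616 genes had no read. Because values were scaled to a common library size, the amount of RNA per plant is not known.

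Under R 4.3.3, limma-trend (version 3.58.1) was fitted to log2(deposited value + 1) for all 8 genotypes and 16 libraries together, leaving 8 residual degrees of freedom, and tested the 20846 genes that reached 10 in 2 or more libraries. P-values were adjusted by Benjamini-Hochberg over all of them. The filter used all libraries and no group. Alternatives included edgeR 4.0.16 (quasi-likelihood) and DESeq2 1.42.0 on the recovered reads. The scripts were also run on simulated data, and the outcome is not used here. Counting intervals are exact and cover counting error only.

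The members, gene lists and tests were chosen with earlier results of these data known. All 10 members are named. Of each other list, up to 3 genes called in most mutants were named, with ties broken by the larger fold change, and any gene called in mbd124. Gene models, names and promoter windows come from RefSeq on TAIR10.1, in which all 32548 identifiers were found; the nuclear chromosomes of TAIR10 and TAIR10.1 carry the same sequence, and the table gives no coordinates.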

Additional observations from a re-analysis of the deposited data

How the results depend on the processing

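Over 70 pairs of member and mutant against the wild type, call and direction were kept in 69 with a pseudocount of 0.1, 69 with a replicate block, 69 with a minimum of 50, 66 without a filter, 66 with median-of-ratios factors, 66 with edgeR, 57 when only the 2 genotypes compared were fitted and 56 with DESeq2, and in 224 of 280 cases with 1 library left out. Replicate numbers paired the libraries at most weakly (r of -0.095 to 0.119 between same-numbered deviations, 3 of 28 over 0.1). The replicate block ended 1 member call, MBD5 in sant1234 (log2 fold change -0.42, limma adjusted p 0.0539), and among linked genes that of MET1 in arid14 (-0.20, adjusted p 0.051). With only the 2 genotypes fitted, members called were 1 in arid14, 1 in sant1234, 2 in esant12 and 1 in hda19, and genes called were 4293 in arid14, 2607 in sant1234, 3270 in esant12, 3090 in hda19 and 116 in mbd124 (6735, 4134, 5392, 6297 and 2084 in the fit of 8 genotypes); that fit holds fewer libraries. With DESeq2, members called were 1 in arid14, 0 in sant1234, 2 in esant12 and 1 in hda19, and genes called were 2900 in hda6, 2565 in sant1234, 3415 in esant12 and 4152 in hda19; the cause was not tested. Values that changed sign were small, and none was called either way: MBD2 in esant12 (0.0022 with median-of-ratios factors, 0.0059 with edgeR, 0.0003 with DESeq2), MBD11 in mbd124 (-0.006 with those factors, -0.0088 with DESeq2) and MBD6 in rxt3 (0 to 4 decimals with those factors, 0.0102 with edgeR). With 1 library left out, members called ran from 1 to 2 in arid14, 0 to 2 in sant1234, 2 to 3 in esant12 and 0 to 2 in hda19, and genes called from 2390 to 3397 in hda6, 2145 to 2544 in sant1234, 3328 to 3758 in esant12, 4031 to 5190 in hda19 and 783 to 1162 in mbd124. The log2 fold change then ran from -0.248 to 0.0459 for MBD1 in hda6, from -0.0599 to 0.0755 for MBD2 in hda6, -0.0575 to 0.0779 in hda19, -0.117 to 0.0183 in sant1234 and -0.0684 to 0.0671 in esant12, from -0.0675 to 0.334 for MBD4 in sant1234, from -0.0464 to 0.244 for MBD6 in sant1234 and -0.107 to 0.146 in mbd124, from -0.0578 to 0.241 for MBD7 in hda19, from -0.123 to 0.0236 for MBD10 in sant1234 and -0.0731 to 0.0514 in esant12, and from -0.103 to 0.104 for MBD11 in mbd124. Of 44 further results (linked genes, and members between mutants), 21 held in every alternative and 0 changed sign. With 2 libraries a genotype, 10 of 24 member calls outside the genes mutated in mbd124 held in every alternative.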

Other observations

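Of 3 further MBD genes looked at, MBD13 (AT5G52230) was expressed at 193 and 222 counts in the wild type and was not called in any mutant (limma F test, adjusted p 0.15), with its highest mean in esant12 (237 and 268 counts). MBD12 (AT5G35338) was listed at 0 in all 16 libraries. MBD3 (AT4G00416) was at 0 in both wild-type libraries and reached at most 2.03 counts elsewhere, in an hda6 library. Neither was tested.

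For each member, the genes whose log2(count + 1) followed it most closely were looked up among genes with a mean of at least 50, as a description with no test; the libraries share genotypes and a common scaling, and at this number of libraries close matches arise among many genes. The lookup gave 3 genes per member. All are named here for MBD9, the first and second for MBD6, and only the first for the others. Whether matched genes share a function was not tested. Over 16 libraries, MBD9 was followed by the Arabidopsis PESCADILLO gene AT5G14520 (Pearson's r 0.94, Spearman's rho 0.91), NMD3 (r 0.93, rho 0.91) and nucleolin NUC-L1 (r 0.93, rho 0.87). MBD11 was followed by SAG29, also named SWEET15 (r 0.91, rho 0.92), and MBD7 by SCPL27 (r 0.94, rho 0.89). MBD10 was followed by AT4G01460 (r 0.97, rho 0.97), and MBD6 by AT2G29020 (r 0.91, rho 0.83). Next for MBD6 came the histone H2A gene RAT5, also named HTA1 (r 0.89, rho 0.88). MBD8 was followed by AT5G48335 (r 0.94, rho 0.69), and MBD5 by GAMMA CA2 (r 0.84, rho 0.81). Over the 14 libraries without mbd124, MBD2 was followed by VCL1 (r 0.97, rho 0.81), MBD4 by the proteasome subunit gene RPT5B (r 0.94, rho 0.97) and MBD1 by AT2G13840 (r 0.90, rho 0.83). Among members themselves, MBD7 and MBD11 ran in opposite directions over the 16 libraries (r -0.77, rho -0.76), and so did MBD6 and MBD11 (r -0.74, rho -0.72), while MBD5 and MBD6 showed r of -0.36 and rho of -0.39.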
